A study of Mus musculus with 12 samples.

Results

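The SLC25 family of mitochondrial carriers was followed in the ventricular wall of mice that lack Sdhaf4, the assembly factor that helps SDHA, the catalytic subunit of succinate dehydrogenase (complex II), to join SDHB. Members were taken by name: every row of the count table called Slc25a followed by a number, which gave 47 genes among 43686 rows. RNA-seq libraries of poly-A mRNA were compared from 6 WT mice, the labels' wild type, which were Sdhaf4fl/fl littermates without Cre, and from 6 KO mice, labelled Sdhaf4-/-, which carried Sdhaf4fl/fl together with Ckmm-Cre. Both groups were C57BL/6 by the labels and C57BL/6J by the study's methods, and were at post natal month 2 by the labels, although the study's text gives a younger age for the same experiment. The study's reporting summary gives male mice for its omics work, and an age it lists is close to that of the labels. Ckmm-Cre is driven by the muscle creatine kinase promoter and deletes in cardiac and skeletal muscle, so other cell types of the wall were not targeted, and nothing in the sources names a treatment. The totals were 23747014 to 27159228 counts per WT library and 26542930 to 31393393 per KO library, and Sdhaf4 itself fell from 14.3 to 30.3 CPM (counts scaled by library size on edgeR's TMM scale) in WT to 2.25 to 2.73 CPM in KO, a log2 fold change of -3.39 (SE 0.16, adjusted p = 1.95e-10).

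Most SLC25 proteins sit in the inner mitochondrial membrane, which is closed to most metabolites, and many exchange one solute for another across it. The family is nuclear-encoded and shares a repeated carrier fold. It includes the ADP/ATP carriers, the phosphate carrier, the shuttles for malate, aspartate and acylcarnitine, and the carriers that bring coenzyme A, NAD+, S-adenosylmethionine, iron and glutathione into the matrix. In heart muscle the ADP/ATP and phosphate carriers feed ATP synthase and belong to the most abundant proteins of the organelle. Several members still have no settled substrate.

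Of the 47 members, 39 had enough counts to be tested (edgeR's filterByExpr) and 8 did not. Slc25a41, Slc25a48 and Slc25a54 had 0 counts in all 12 libraries. Slc25a2, Slc25a18, Slc25a21, Slc25a31 and Slc25a43 never exceeded 10 counts in a library, so a difference between the groups was not detectable at this depth for these members. The 8 include Slc25a31, the germ-cell ADP/ATP carrier, Slc25a18, a second glutamate carrier whose row overlaps Atp6v1e1, and Slc25a2, a second ornithine carrier.

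SLC25 transcripts were lower in KO far more often than higher. In the quasi-likelihood test of edgeR, adjusted by Benjamini-Hochberg over all 17155 rows tested, 22 members (56.4%) passed an adjusted p under 0.05, against 51.1% of all rows. By direction, 19 of the 39 members (48.7%) were lower in KO, against 25.5% of all rows, and 3 (7.69%) were higher, against 25.6% of all rows. The median log2 fold change of the 39 was -0.18, with a range of -1.05 to 0.71, and the median of all rows tested was 0.00. In 14 members (35.9%) every KO library lay below every WT library, which was the case for 15.2% of all rows, and in 2 (5.13%) every KO library lay above, against 14.9% of all rows (30.1% in either direction). Because the members are genes of the same 12 libraries, these shares are a description and were not tested as a set. The same shares of all rows, 25.5% lower and 25.6% higher, stand beside each count by class or list below. Those classes and lists are small and were not tested as sets either.

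Most of the decreases were moderate. Only Slc25a42, the coenzyme A carrier, and Slc25a34, a carrier without a settled substrate, passed an adjusted p of 0.005 together with a change of more than 2-fold, which is 5.13% of the tested members against 10.2% of all rows (5.36% higher and 4.87% lower), and both were lower. Tested against a 2-fold change itself (edgeR's glmTreat), 0 of the 39 passed an adjusted p of 0.005, against 3.43% of all rows, and 0 had an unadjusted p under 0.05, the lowest being 0.137 for Slc25a42. Slc25a34 slipped inside 2-fold when WT replicate 3, WT replicate 5 or KO replicate 1, 2 or 4 was left out, with a smallest log2 difference of -0.96.

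**Figure D1:**
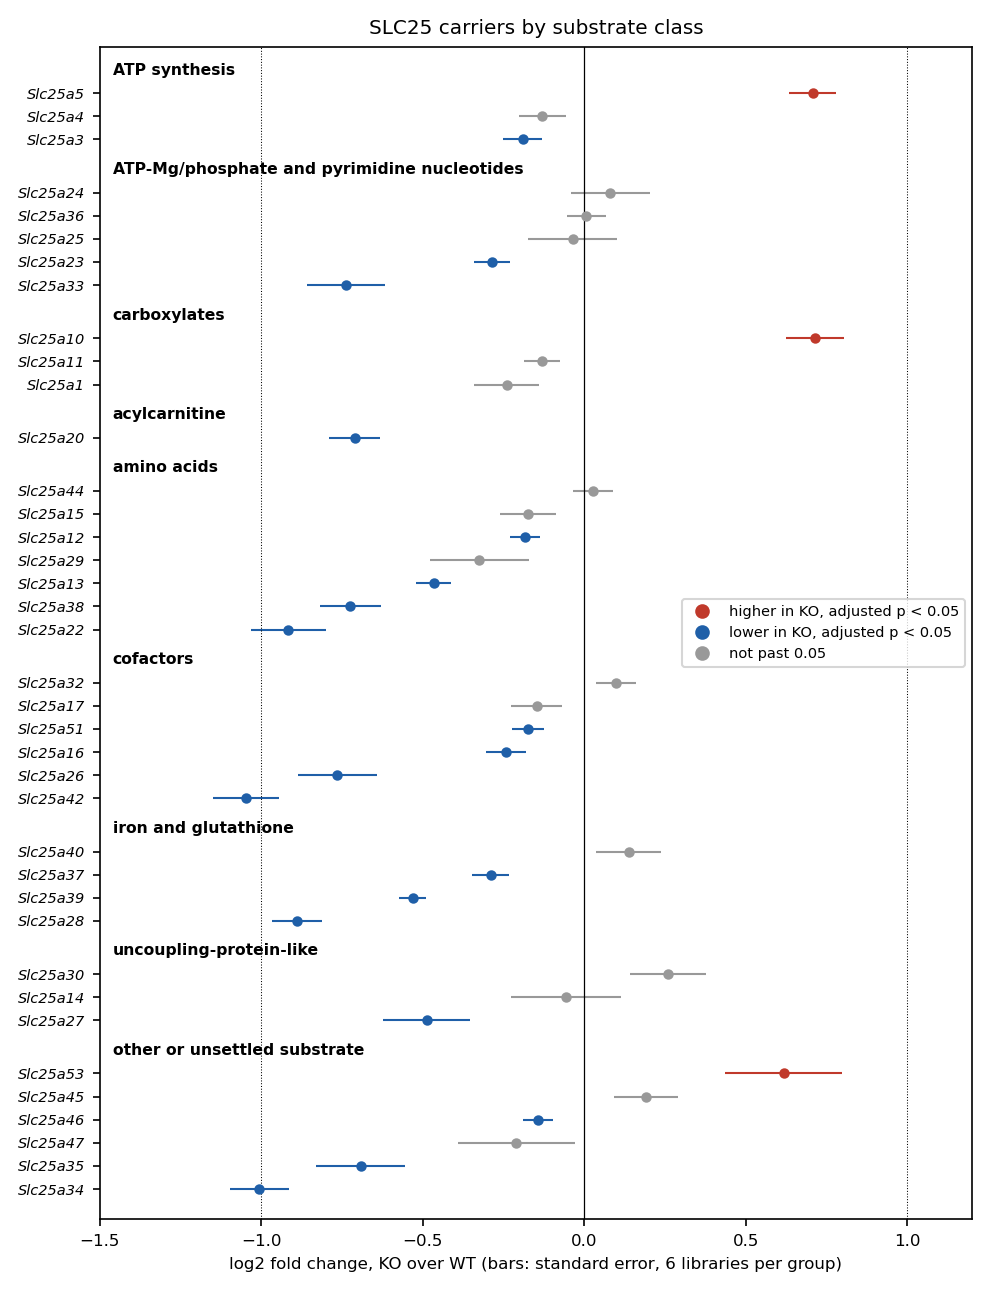
The horizontal axis is the log2 fold change of KO over WT for 38 of the 39 tested SLC25 members, grouped by substrate class, with standard errors from 6 libraries per group and dotted lines at a 2-fold change. Points for 19 members lie to the left in blue (lower in KO), 3 to the right in red (Slc25a5, Slc25a10 and Slc25a53), and 16 in grey did not pass an adjusted p of 0.05.

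The libraries differed between the groups in more than the carriers. Among all rows tested, 25.5% were lower and 25.6% higher. Of 8 ventricular cardiomyocyte markers, 5 were lower in KO and 0 higher, and their summed level was 44367 to 46776 FPKM (fragments per kilobase of gene length and per unit of library size) in WT and 35033 to 44835 in KO. Their median log2 fold change was -0.30, beside -0.18 for the 39 tested carriers. All 6 fibroblast markers were higher, with a summed level of 699 to 855 FPKM in WT and 1242 to 2456 in KO. Of 5 endothelial markers, 3 were higher and 1 lower. Of 5 macrophage markers, 1 was higher and 2 lower, and of 5 smooth muscle and pericyte markers, 2 were higher and 1 lower. Of 4 atrial markers, Myl7, Sln and Bmp10 were at or near 0 in every library, and Myl4, the 1 tested, was higher in KO at a low level (1.49 to 3 CPM in WT and 2.74 to 4.47 CPM in KO, log2 fold change 0.72, adjusted p = 0.00515). The 4 fat markers summed to 603 to 751 FPKM in WT and 534 to 731 FPKM in KO. Of these, Adipoq and Plin1 were near 0, Fabp4 did not pass, and Cidea was higher, at 35.8 to 45.4 CPM in WT and 50.1 to 66.9 CPM in KO. The part that these shifts had in the carrier results was not tested, and in bulk tissue fewer cardiomyocytes and less RNA per cardiomyocyte cannot be told apart.

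The ADP/ATP carriers and the phosphate carrier, which supply ATP synthase, made up most of the family's RNA. Slc25a4 (ANT1, chr8:47005541-47010028 on the minus strand in the table's coordinates), the main ADP/ATP carrier of muscle, was the most abundant member at 3404 ± 151 FPKM (SD, n = 6) in WT and 3109 ± 245 FPKM in KO. Slc25a3, the phosphate carrier, followed at 1052 ± 43.3 FPKM in WT and 922 ± 48.4 FPKM in KO. Together with the oxoglutarate carrier Slc25a11 these genes held 77.8% to 79.7% of the summed FPKM of all members in WT and 77.7% to 81.3% in KO. The family sum was 6335 ± 215 FPKM in WT and 5667 ± 300 FPKM in KO.

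Slc25a4 ranged from 5113 to 5869 CPM in WT, with a median of 5491, and from 4349 to 5714 CPM in KO, with a median of 4925. The groups overlapped, and the log2 fold change of -0.13 (SE 0.07) did not pass (adjusted p = 0.149). It did pass when KO replicate 3 was left out, at -0.18 (adjusted p = 0.0268). Slc25a3 lay at 1476, 1555 and 1665 CPM (lowest, median and highest) in WT and at 1266, 1353 and 1554 CPM in KO. Its decrease of -0.19 on the log2 scale (SE 0.06) passed at an adjusted p of 0.0144 although the groups overlapped, and its row shares sequence with an unnamed row on the same strand, so its size is uncertain.

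Slc25a5 (ANT2, chrX:32342418-32347027, plus strand), the ADP/ATP carrier that is widespread outside muscle, moved the other way. Its level was 179, 196 and 217 CPM in WT and 268, 323 and 371 CPM in KO. All 6 KO libraries lay above all 6 WT libraries, and the log2 fold change was 0.71 (SE 0.07, adjusted p = 5.52e-07). Reads of a processed copy that another annotation names Slc25a5-ps could be shared with it. Slc25a5 thus took 2.65% to 3.38% of the family's FPKM in WT and 4.19% to 6.85% in KO, whereas the share of Slc25a4 was 52.8% to 54.9% in WT and 53.0% to 56.5% in KO.

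The ratio of Slc25a5 to Slc25a4 within a library, from FPKM, rose from 0.0482 to 0.0630 in WT (median 0.0603) to 0.0741 to 0.129 in KO (median 0.0996). The difference was 0.84 on the log2 scale, with an exact two-sided permutation p of 0.00216, the smallest that 6 against 6 libraries allow, and 0.0026 after adjustment over the 6 ratios of sister carriers examined. The promoters of this pair are shown because the genes moved apart. They are the 250 bases before the annotated start in RefSeq's GRCm38.p6, whose coordinates differ from those of the count table, at chr8:46211063-46211312 on the minus strand for Slc25a4 and chrX:36795347-36795596 on the plus strand for Slc25a5. Neither held any of the 3 motifs searched, which are described further on, so no letters are in capitals.
Slc25a4: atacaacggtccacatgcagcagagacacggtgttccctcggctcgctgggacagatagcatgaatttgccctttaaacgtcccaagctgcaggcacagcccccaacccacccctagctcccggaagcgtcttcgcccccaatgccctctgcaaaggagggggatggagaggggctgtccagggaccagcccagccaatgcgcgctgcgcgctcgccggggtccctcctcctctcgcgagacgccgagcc
Slc25a5: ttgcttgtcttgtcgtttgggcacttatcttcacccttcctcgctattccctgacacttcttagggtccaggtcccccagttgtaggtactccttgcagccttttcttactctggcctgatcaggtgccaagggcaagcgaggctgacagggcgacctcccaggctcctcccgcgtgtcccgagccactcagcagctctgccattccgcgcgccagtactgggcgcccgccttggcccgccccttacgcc

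**Figure D2:**
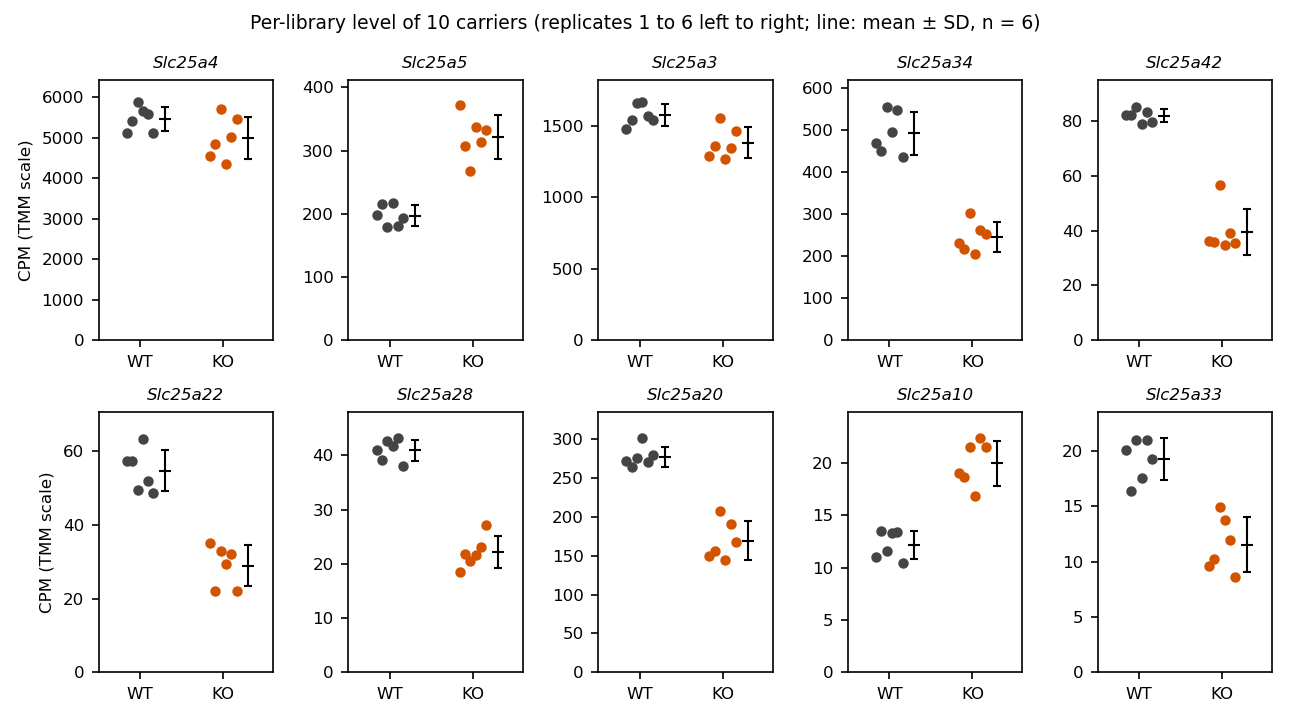
Each point is 1 library, on CPM axes that start at 0, for 10 SLC25 members, with the mean and SD of 6 libraries per group beside the points. Slc25a5 and Slc25a10 show all KO libraries above WT, Slc25a4 and Slc25a3 overlap, and for Slc25a42 the KO library at 56.6 CPM (replicate 3) stands above the other KO libraries at 34.6 to 39.3 CPM.

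Nucleotide carriers other than ANT were split. Of the 6 ATP-Mg/phosphate and pyrimidine nucleotide carriers, 5 were tested, 2 were lower and none was higher. Slc25a33, a pyrimidine nucleotide carrier, was at 16.4, 19.7 and 21.0 CPM in WT and 8.61, 11.1 and 14.9 CPM in KO, with no overlap (log2 fold change -0.74, SE 0.12, adjusted p = 8.33e-05). Slc25a36, its sister with the same class of substrate, had medians of 82.7 CPM in WT and 82.4 CPM in KO (log2 fold change 0.01, SE 0.06, adjusted p = 0.943). Both rows overlap unnamed rows on the opposite strand, and whether the counting used strand is not given in the sources used here.

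Slc25a23, a calcium-regulated ATP-Mg/phosphate carrier, lay at 48.5, 49.3 and 53.7 CPM in WT and at 37.6, 41.6 and 45.2 CPM in KO (log2 fold change -0.28, SE 0.06, adjusted p = 0.000393). Every KO library was below every WT library. Its sister Slc25a24 was at 9.35, 11.9 and 13.9 CPM in WT and 9.91, 12.1 and 15.8 CPM in KO, with overlap (log2 fold change 0.08, SE 0.12, adjusted p = 0.608). The third expressed ATP-Mg/phosphate carrier, Slc25a25, had a log2 fold change of -0.04 (SE 0.14, adjusted p = 0.849), and its row overlaps Naif1.

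The carboxylate carriers exchange Krebs cycle acids with the cytosol, and they contained a member that rose. Slc25a10 (chr11:128738486-128745834, plus strand), the dicarboxylate carrier, which exports malate and succinate against phosphate, was at 10.4, 12.4 and 13.5 CPM in WT and 16.9, 20.3 and 22.4 CPM in KO. All KO libraries were above all WT libraries (log2 fold change 0.71, SE 0.09, adjusted p = 4.77e-06). Succinate is the substrate of the enzyme that Sdhaf4 helps to assemble, which is background and not a reading of the change.

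The other expressed carboxylate carriers, Slc25a11 and Slc25a1, did not pass, although both lay close to the threshold and passed under some alternatives. With DESeq2 their adjusted p was 0.0438 and 0.0473, and with unannotated loci left out 0.0486 and 0.0442. Slc25a11 also passed when counts were scaled by library size only (adjusted p = 0.0303) and Slc25a1 with upper quartile scaling (adjusted p = 0.0458). Slc25a11, the malate/oxoglutarate carrier (523 ± 17.7 FPKM in WT), ranged from 425 to 460 CPM in WT (median 433) and from 358 to 441 CPM in KO (median 397), with a log2 fold change of -0.13 (SE 0.06, adjusted p = 0.0639). It overlaps Rnf167, and it passed when KO replicate 3 or KO replicate 6 was left out (-0.16 in both, adjusted p = 0.0179 and 0.0223). Slc25a1, the citrate carrier, was at 9.47, 10.3 and 12.3 CPM in WT and 7.15, 9.56 and 9.98 CPM in KO (log2 fold change -0.24, SE 0.10, adjusted p = 0.0562), and passed without WT replicate 1 or KO replicate 6 (-0.28 and -0.27, adjusted p = 0.0349 and 0.0422).

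Fatty acids enter the matrix as acylcarnitines through Slc25a20, the carnitine/acylcarnitine carrier (chr9:113661521-113687647, plus strand). It was at 263, 273 and 301 CPM in WT and at 144, 162 and 208 CPM in KO. The groups did not overlap, and the transcript fell by 38.9% (log2 fold change -0.71, SE 0.08, adjusted p = 1.3e-06). Of the 4 carnitine shuttle enzymes, 3 (Cpt1b, Cpt2 and Crat) were lower. Cpt1b, the outer palmitoyltransferase of muscle, was listed at only 11.3 to 16 CPM in WT. Its row overlaps Chkb, so the size of its change is uncertain. The 1 that was higher, Cpt1a, is an outer palmitoyltransferase that makes the acylcarnitines this carrier takes in, and was at 105 to 110 CPM in WT and 104 to 145 CPM in KO, with overlap (log2 fold change 0.19, SE 0.07, adjusted p = 0.0225). Cpt2, which returns the acyl group to coenzyme A in the matrix, was at 208 to 248 CPM in WT and 89.4 to 135 CPM in KO (log2 fold change -1.12, SE 0.09, adjusted p = 3.42e-08), and Crat, which makes short acylcarnitines, was at 479 to 530 CPM in WT and 285 to 348 CPM in KO (log2 fold change -0.71, SE 0.06, adjusted p = 2.85e-08). The row of Crat overlaps Golga2 and Dolpp1, so its size is uncertain.

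Amino acid carriers held 7 tested members, of which 4 were lower and none higher, with a median log2 fold change of -0.33. Among all rows, 25.5% were lower and 25.6% higher. The aspartate/glutamate carriers of the malate-aspartate shuttle were both among the lower members. Slc25a12 (aralar), the heart's main form, was at 196, 202 and 215 CPM in WT and 169, 177 and 196 CPM in KO, the highest KO library lying just under the lowest WT library (log2 fold change -0.18, SE 0.05, adjusted p = 0.00289). Slc25a13 (citrin), the main form in liver, was at 140, 152 and 165 CPM in WT and 102, 109 and 119 CPM in KO, which was a larger decrease (log2 fold change -0.47, SE 0.05, adjusted p = 1.6e-06). The ratio of Slc25a13 to Slc25a12 accordingly fell from a median of 0.780 (0.743 to 0.871) to 0.652 (0.588 to 0.698), by 0.28 on the log2 scale (exact two-sided permutation p = 0.00216, adjusted p = 0.0026).

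Slc25a38, which brings glycine into the matrix for heme synthesis, was at 22.9, 25 and 27.3 CPM in WT and 12.9, 14.7 and 19.1 CPM in KO (log2 fold change -0.73, SE 0.09, adjusted p = 6.72e-06). Slc25a22, a glutamate carrier, was at 48.7, 54.6 and 63.3 CPM in WT and 22.0, 30.8 and 35.0 CPM in KO (log2 fold change -0.92, SE 0.12, adjusted p = 1.16e-05). Neither gene overlapped between the groups. Slc25a15 (ornithine), Slc25a29 (basic amino acids) and Slc25a44 (branched-chain amino acids) did not pass, with log2 fold changes of -0.17, -0.33 and 0.03. Slc25a29 passed without WT replicate 2 or KO replicate 6 (adjusted p = 0.0382 and 0.0336), and Slc25a15 without WT replicate 6 (adjusted p = 0.0451).

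Alas1, the first enzyme of heme synthesis and the user of the glycine that Slc25a38 carries, was higher in KO while Slc25a38 was lower. It went from 57.5 to 106 CPM (median 70.5) in WT to 173 to 205 CPM (median 192) in KO, without overlap (log2 fold change 1.35, SE 0.12, adjusted p = 4.07e-07). Of the 7 tested genes that make or use these amino acids, 5 were lower and 1, Alas1, was higher. Bcat2, the mitochondrial aminotransferase of branched-chain amino acids, had the smallest p among the lower ones (log2 fold change -0.65, SE 0.06, adjusted p = 2.34e-07), and its row overlaps an unnamed one.

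All 7 cofactor carriers were tested, 4 were lower and none higher, beside 25.5% lower and 25.6% higher of all rows. Slc25a42 (chr8:73106560-73137109, minus strand), which imports coenzyme A, had the largest fitted decrease of any tested member. It was at 79.1, 82.3 and 85.3 CPM in WT and 34.6, 36.1 and 56.6 CPM in KO, without overlap (log2 fold change -1.05, SE 0.10, adjusted p = 6.32e-07). The highest KO value belonged to replicate 3, and without that library the log2 fold change was -1.18. Slc25a26, the S-adenosylmethionine carrier, was at 22.0, 26.8 and 29.6 CPM in WT and 12, 14.5 and 21.7 CPM in KO (log2 fold change -0.76, SE 0.12, adjusted p = 8.27e-05), and its row overlaps Lrig1.

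Slc25a16, long linked to coenzyme A uptake, and Slc25a51, the NAD+ carrier, fell less, by 15.5% and 11.4% (adjusted p = 0.00401 and 0.00783), and their groups overlapped. Slc25a17, a peroxisomal cofactor carrier, and Slc25a32 (folate and FAD) did not pass, with log2 fold changes of -0.15 and 0.10. Slc25a17 passed without WT replicate 5 or KO replicate 3 (adjusted p = 0.0435 and 0.0316). Among 8 genes that make these cofactors, 5 were lower and none higher. Pank1, which starts coenzyme A synthesis, was at 122 to 153 CPM in WT and 59.4 to 85.7 CPM in KO (log2 fold change -0.90, SE 0.08, adjusted p = 2.21e-07), and Coasy, which finishes it, had a log2 fold change of -0.65 (SE 0.08, adjusted p = 2.01e-06).

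The iron and glutathione carriers had the lowest class median, -0.41, apart from the single acylcarnitine carrier, with 3 of 4 members lower and none higher. The shares of all rows were 25.5% lower and 25.6% higher. Slc25a28 (mitoferrin-2), the iron importer of tissues other than the red cell line, was at 38.1, 41.3 and 43.1 CPM in WT and 18.4, 21.7 and 27.2 CPM in KO (log2 fold change -0.89, SE 0.08, adjusted p = 6.75e-08). Slc25a39, a glutathione importer, had the smallest p of any member: it was at 101, 107 and 112 CPM in WT and at 71.3, 73.9 and 76.6 CPM in KO (log2 fold change -0.53, SE 0.04, adjusted p = 2.64e-08). The groups of both genes were separate.

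Their sisters had smaller differences. Slc25a37 (mitoferrin-1), the importer of developing red cells, was at 28.1, 30.6 and 32.7 CPM in WT and 23.7, 24.3 and 27.3 CPM in KO (log2 fold change -0.29, SE 0.06, adjusted p = 0.000454), and overlaps an unnamed row on the opposite strand. The summed erythroid markers in the table, Hba-a1 and Alas2, were at 475 to 1627 FPKM in WT and 976 to 2074 FPKM in KO and neither passed, and their part in the level of Slc25a37 was not tested. Slc25a40, the second glutathione importer, was at 9.30, 11.3 and 12.2 CPM in WT and 10.2, 11.8 and 14.9 CPM in KO, with overlap (log2 fold change 0.14, SE 0.10, adjusted p = 0.272).

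Gclc, which makes the precursor of glutathione in the cytosol, was higher in KO, at 14 to 20.3 CPM in WT and 21.7 to 35.8 CPM in KO, without overlap (log2 fold change 0.77, SE 0.12, adjusted p = 4.47e-05). Of the 7 genes around iron and glutathione use, 2 were lower, 2 higher and 3 did not pass.

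Within 6 sister pairs the balance between the genes differed between the groups in every pair. How often other pairs of genes differ in this way was not examined, and 51.1% of all rows passed on their own. Slc25a37 over Slc25a28 went from a median ratio of 0.283 (0.249 to 0.291) in WT to 0.406 (0.322 to 0.547) in KO, and Slc25a40 over Slc25a39 from 0.0435 (0.0345 to 0.0503) to 0.0656 (0.0599 to 0.0868). Slc25a36 over Slc25a33 went from 2.31 (2.03 to 2.97) to 4.23 (2.98 to 5.44). These 3 ratios did not overlap between the groups, the last by a narrow margin, and were higher in KO by 0.61, 0.66 and 0.76 on the log2 scale, each with an exact two-sided permutation p of 0.00216 and 0.0026 after adjustment.

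The ratio of Slc25a24 to Slc25a23 was also higher, from 0.164 (0.133 to 0.184) to 0.215 (0.158 to 0.246), by 0.36 on the log2 scale, but the groups overlapped (exact two-sided permutation p = 0.0152, adjusted p = 0.0152). By the deposited FPKM, the less abundant gene gained on the more abundant one in 4 of these 6 pairs. In the pyrimidine pair the more abundant Slc25a36 gained, and in the aspartate/glutamate pair the less abundant Slc25a13 lost. Which sister is more abundant rests on the gene length behind the FPKM. That length was 1671 bases for Slc25a12 and 1931 for Slc25a36, where the table's length column gives 6351 and 5227. The order of level within the pyrimidine and aspartate/glutamate pairs is therefore uncertain. Glutamate carriers could not be compared this way because Slc25a18 was not tested.

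**Figure D3:**
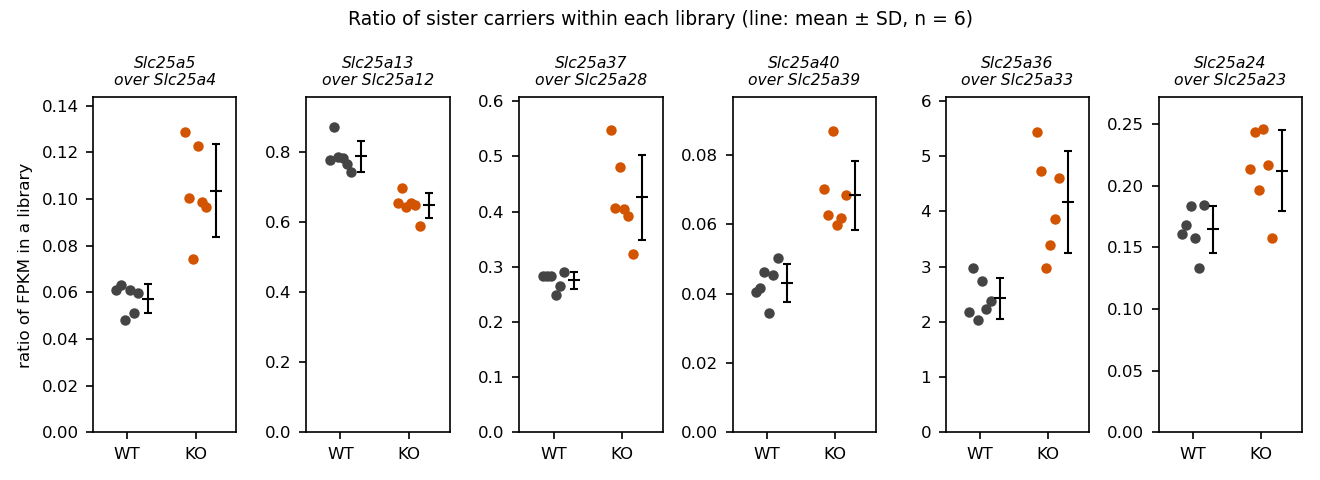
Each point is the ratio of FPKM of 2 sister carriers within 1 library, with the mean and SD of 6 libraries per group, on axes that start at 0. The KO libraries lie above the WT libraries for Slc25a5 over Slc25a4, Slc25a37 over Slc25a28, Slc25a40 over Slc25a39 and Slc25a36 over Slc25a33, below them for Slc25a13 over Slc25a12, and overlap them for Slc25a24 over Slc25a23.

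The uncoupling-protein-like members, whose transport roles are still debated, were all of low level. Slc25a27 (UCP4) was at 8.50, 10.1 and 13.5 CPM in WT and 6.12, 7.10 and 9.50 CPM in KO, with overlap (log2 fold change -0.49, SE 0.13, adjusted p = 0.006). Slc25a30 was at 6.90, 8.76 and 10.1 CPM in WT and 7.46, 10.3 and 11.3 CPM in KO (log2 fold change 0.26, SE 0.12, adjusted p = 0.0751), and passed without WT replicate 6 or KO replicate 6 (adjusted p = 0.0378 and 0.0163). Slc25a14 (UCP5) had a log2 fold change of -0.06 (SE 0.17, adjusted p = 0.806).

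Relatives with the fold but without an Slc25a name were examined beside them. Of 4 that were tested, Ucp3, the muscle uncoupling protein, was lower, going from 112 to 208 CPM in WT to 17.8 to 101 CPM in KO (log2 fold change -1.65, SE 0.37, adjusted p = 0.00325), and Mtch1, an outer membrane relative, was higher, going from 117 to 127 CPM to 165 to 199 CPM (log2 fold change 0.58, SE 0.05, adjusted p = 3.58e-08). Neither overlapped between the groups, although the row of Ucp3 overlaps an unnamed one. Mtch2 was lower (log2 fold change -0.12, adjusted p = 0.0209), Ucp2 did not pass, and Ucp1 had at most 1 count in a library.

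Among the 9 members without a settled or with another substrate, 6 were tested, 3 were lower and 1 higher. Slc25a34 (chr4:149736817-149741596, minus strand) was the fifth most abundant member in WT at 184 ± 15.7 FPKM and was at 91.4 ± 11.4 FPKM in KO. Its counts were 435, 481 and 555 CPM in WT and 204, 241 and 303 CPM in KO, with a wide gap between the groups (log2 fold change -1.01, SE 0.09, adjusted p = 1.81e-07). Slc25a35, its close relative, was much scarcer and fell in the same direction, from 5.34, 6.30 and 7.65 CPM to 2.92, 4.11 and 4.79 CPM (log2 fold change -0.69, SE 0.14, adjusted p = 0.000461), with a row that overlaps Rangrf.

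Slc25a53 was the third member that was higher in KO, and it was the scarcest of those tested. It was at 1.48, 2.58 and 2.82 CPM in WT and 2.62, 3.66 and 4.20 CPM in KO, so the groups overlapped, and it rested on 35 to 123 counts per library (log2 fold change 0.62, SE 0.18, adjusted p = 0.00921). Slc25a46, an outer membrane member involved in membrane shape, was lower by 9.46% (adjusted p = 0.014), with overlap between the groups and with B930094E09Rik on the genome. Slc25a45 and Slc25a47 did not pass, with log2 fold changes of 0.19 and -0.21.

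Sorted by WT level, the lower members were found mainly above 10 FPKM. Over all rows of any level, 25.5% were lower and 25.6% higher. The shares of all rows within each level were not examined, so these counts are not set apart from other genes of like level. The 8 untested members were under 1 FPKM. Of 15 members between 1 and 10 FPKM, 3 were lower, 1 was higher and 11 did not pass, with a median log2 fold change of -0.04. Of 16 members between 10 and 100 FPKM, 11 were lower, 1 was higher and 4 did not pass, with a median of -0.26. Of 8 members over 100 FPKM, 5 were lower, 1 was higher and 2 did not pass, with a median of -0.19.

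The relation of level to change was loose, with a Spearman rho of -0.27 over the 39 tested members, and it weakened to -0.20 when the level was the mean of all 12 libraries. The members share the libraries, and the SE is larger for scarcer ones, so the counts per level also follow the precision of the test. Of the 5 most abundant members, Slc25a5 was higher, Slc25a3 and Slc25a34 were lower, and Slc25a4 and Slc25a11 did not pass.

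**Figure D4:**
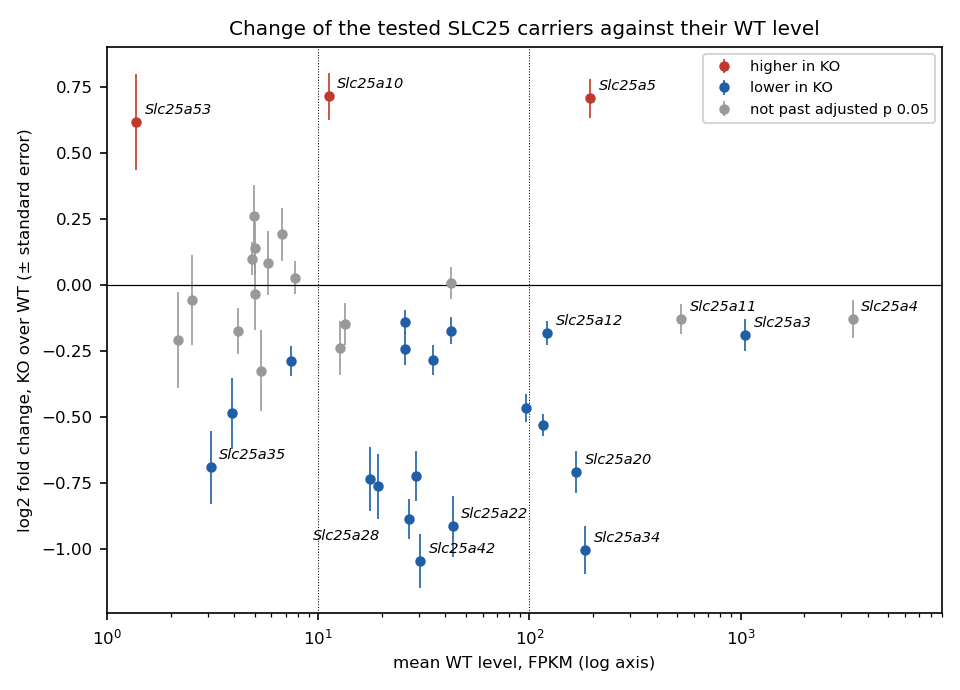
The horizontal axis is the mean WT level in FPKM on a log axis and the vertical axis the log2 fold change of KO over WT with its standard error, for 38 of the 39 tested members, with dotted lines at 10 and 100 FPKM. Blue points (lower) gather to the right of 10 FPKM, where 16 of the 19 lie, and grey points (not past an adjusted p of 0.05) to its left, where 11 of the 16 lie.

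The enzymes and channels that hand substrates to the carriers were examined as 8 short lists with 40 tested genes. Of these, 25 were lower, 5 higher and 10 did not pass, with a median log2 fold change of -0.24, beside 25.5% and 25.6% of all rows. The pyruvate carrier, which belongs to another family, was lower in both subunits, Mpc2 by -0.41 (SE 0.05, adjusted p = 3.96e-06) and Mpc1 by -0.18 (SE 0.07, adjusted p = 0.0365) on the log2 scale. The row of Mpc1 overlaps an unnamed one.

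For ATP and phosphate exchange, 4 of 6 tested genes were lower and 1 higher. Ppif (cyclophilin D), which binds the ADP/ATP carriers and regulates the permeability transition, was at 172 to 189 CPM in WT and 104 to 140 CPM in KO (log2 fold change -0.53, SE 0.06, adjusted p = 2.21e-06). Vdac2, an outer membrane channel, was higher, like Slc25a5, with a log2 fold change of 0.27 (SE 0.05, adjusted p = 0.000415). Of the 4 malate-aspartate shuttle enzymes, 3 were lower and none higher, among them Mdh2 (log2 fold change -0.33, SE 0.06, adjusted p = 0.000292) and Got1 (-0.27, SE 0.08, adjusted p = 0.009).

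For the citrate that Slc25a1 exports, Acacb, the acetyl-CoA carboxylase at the mitochondrial surface, was at 522 to 583 CPM in WT and 241 to 373 CPM in KO (log2 fold change -0.79, SE 0.09, adjusted p = 1.21e-06). Acly, which splits the citrate, did not pass (log2 fold change 0.18, SE 0.07, adjusted p = 0.0571).

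**Figure D5:**
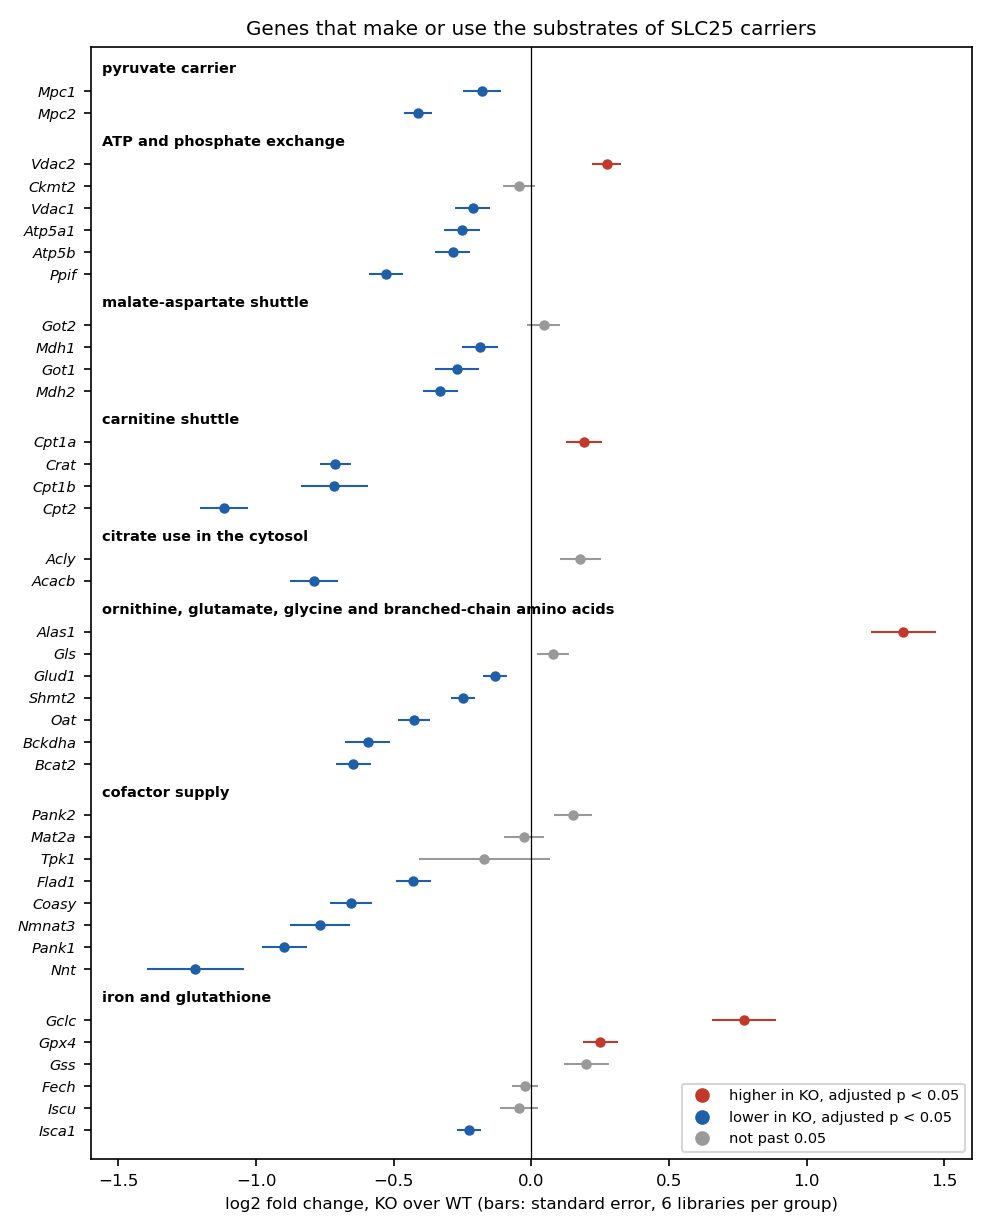
The horizontal axis is the log2 fold change of KO over WT, with standard errors from 6 libraries per group, for 39 of the 40 tested genes that make or use the substrates of SLC25 carriers, in 8 lists. Blue points (24 genes) are lower in KO, the 5 red points (Vdac2, Cpt1a, Alas1, Gclc and Gpx4) are higher, and the 10 grey ones did not pass an adjusted p of 0.05.

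Promoters were searched for short motifs of factors that drive mitochondrial genes. RefSeq (GRCm38.p6) gave 46 promoters for 36 of the 47 members, and the 250 bases before the start were read on both strands. AAGGTCA, an element of nuclear receptors such as the estrogen-related receptors, was present in 1 of the 46 (2.17%) and in 4.08% of all 32851 promoters. GCGCATG, a core of the NRF1 motif, was in 2 of the 46 (4.35%) and in 3.24% of all promoters. Both belong to members too scarce to be tested, Slc25a31 and Slc25a54, and no promoter of a tested member held it. CACGTG, the E-box read by MYC and related factors, was in 8 of the 46 (17.4%), which belong to 7 genes, and in 6.02% of all promoters. Overlapping windows of Slc25a14 hold the same match. By gene, 7 of 36 members and 1854 of 27025 genes held the E-box. A match describes the letters in this window only. None of the motifs contains another.

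By call, the E-box was in 2 of 16 promoters of lower members (12.5%) and in 5 of 19 promoters of tested members that did not pass (26.3%), and in none of the 4 of higher members. The 5 count the shared match of Slc25a14 more than once and belong to 4 of 14 genes, and the 2 belong to 2 of 13 genes. The 3 promoters of lower members with any match are printed because they belong to genes described above, with the match in capitals. Slc25a34 (chr4:141623835-141624084, minus strand) holds the nuclear receptor element in reverse orientation, with 112 bases between the match and the gene start. Slc25a13 (chr6:6217174-6217423, minus strand) and Slc25a33 (chr4:149774268-149774517, minus strand) hold the E-box.
Slc25a34: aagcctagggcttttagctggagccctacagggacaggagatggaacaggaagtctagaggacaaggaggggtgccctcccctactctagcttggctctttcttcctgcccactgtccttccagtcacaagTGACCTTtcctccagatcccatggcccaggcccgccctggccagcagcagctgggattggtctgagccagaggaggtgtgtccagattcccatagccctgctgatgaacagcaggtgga
Slc25a13: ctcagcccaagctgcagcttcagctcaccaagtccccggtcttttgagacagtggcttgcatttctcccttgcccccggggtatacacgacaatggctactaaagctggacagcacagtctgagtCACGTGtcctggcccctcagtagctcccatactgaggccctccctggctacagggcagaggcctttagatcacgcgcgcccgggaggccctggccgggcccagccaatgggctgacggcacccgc
Slc25a33: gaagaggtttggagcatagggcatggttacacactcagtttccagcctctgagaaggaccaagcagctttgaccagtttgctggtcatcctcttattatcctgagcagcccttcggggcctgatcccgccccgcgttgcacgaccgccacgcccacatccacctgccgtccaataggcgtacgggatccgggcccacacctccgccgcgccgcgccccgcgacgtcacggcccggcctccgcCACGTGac

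The promoters of 11 members were not analysed here, among them those of Slc25a2, Slc25a26, Slc25a27, Slc25a32, Slc25a35, Slc25a37, Slc25a41, Slc25a44, Slc25a46 and Slc25a51.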

How the data were processed

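Ventricular wall mRNA of 6 WT and 6 KO mice was analysed, grouped by the sample labels. The authors counted reads per gene with HTSeq and deposited raw counts and FPKM per library. The submitters' processing notes name mm10 and HISAT2 2.0.5, whereas the row identifiers (MGP_C57BL6NJ) belong to the C57BL/6NJ annotation, so coordinates are given as in the table. The deposited FPKM rest on a gene length that is the same in every library and can be shorter than the table's length column. The authors' group means (FPKM, and counts scaled as a signal), log2 fold changes and p-values were not used.

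The counts were tested with edgeR 4.0.16 under R 4.3.3 (rows kept by filterByExpr, 17155 of 43686 rows, TMM, quasi-likelihood test with robust dispersions, Benjamini-Hochberg adjustment). CPM are on the TMM scale. Each SE follows from a fold change and its F statistic. Levels are compared between genes only as FPKM, and ratios of sister carriers were tested by exact permutation over libraries (scipy 1.17.1). Replicate numbers were not used as pairs: same-numbered WT and KO libraries correlated at -0.16 to 0.02 in their deviations from the group means, and 0 of 6 exceeded 0.1. P-values measure the spread between these libraries. No libraries were counted as 1 sample, since chi-square per degree of freedom between replicates was never under 7.41. On simulated counts of this comparison (17155 genes, 200 changed), 38 of 44 genes lowered 2-fold and 35 of 41 raised 2-fold were called, with 11 false calls. Changes under 2-fold were not simulated, and far fewer genes changed than the 51.1% of rows called here. The recovery of the moderate member changes is therefore not known from it.

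The members, substrate classes, partner lists, marker lists and thresholds were chosen with earlier results of these data known. Full values are given for members past both thresholds, the 5 most abundant, the 2 with the smallest p per class and the genes of sister pairs that passed, and of each partner list for the 2 genes with the smallest p. Slc25a22 and the remaining values were added after their values were seen. Of 97 list genes 7 had no row matched by name. Member rows overlapping another row with a mean of at least 10 counts (10 of 47) are named as uncertain. Alternatives covered the scaling, filter, test, level measure and leaving out libraries. The values of 1 tested member and of 1 partner gene are not reported here, although the counts include them.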

Additional observations from a re-analysis of the deposited data

Results flagged for a closer look

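Single libraries standing apart from the other 5 of their group (Dixon's criterion for 6 values) were found in 3 of the 80 groups examined, where chance gives about 4. Slc25a42 was at 56.6 CPM in KO replicate 3 and at 34.6 to 39.3 CPM in the other KO libraries, with a WT mean of 82.0 CPM. Slc25a30 was at 7.46 CPM in KO replicate 6 and at 9.90 to 11.3 CPM in the other KO libraries. Sdhaf4 was at 2.73 CPM in KO replicate 1 and at 2.25 to 2.41 CPM in the other KO libraries, all far under the WT mean of 25.2 CPM. Its lowest WT library, at 14.3 CPM, lay well under the WT median of 26.7 CPM but did not meet the criterion. Without WT replicate 6 the log2 fold change of Sdhaf4 was -3.51 (SE 0.089), and with all libraries it was -3.39 (SE 0.159).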

How the results depend on the processing

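All 22 called members kept their call under each of the 23 alternatives run as a gene-wise test, and of 897 member values 876 stayed on their side of the threshold, 21 newly passed 0.05 and 0 changed direction. Leaving out 1 library at a time gave 19 to 22 lower and 3 to 4 higher members, 1 to 2 past both thresholds, a median of -0.20 to -0.17, and for Sdhaf4 -3.51 to -3.34. Ratio differences ranged over 0.77 to 0.93 (Slc25a5 over Slc25a4), -0.30 to -0.25 (Slc25a13 over Slc25a12), 0.53 to 0.68 (Slc25a37 over Slc25a28), 0.59 to 0.71 (Slc25a40 over Slc25a39), 0.68 to 0.85 (Slc25a36 over Slc25a33) and 0.30 to 0.44 (Slc25a24 over Slc25a23). Without WT replicate 6 and KO replicate 3 the median was -0.22. Tested against 2-fold, 0 members passed. With at least 5 FPKM required, 1 member at 1 to 10 FPKM was lower, since fewer were tested (7). With levels recomputed from the length column, an alternative chosen after seeing the data, 3 members over 100 FPKM were lower, since 6 lay there, and leaving out members that overlap other rows left 13 lower and 3 higher of 30. The replicate block (same numbers as pairs, which the correlations do not bear out) gave 19 lower, 3 higher and 2 past both, with a median of -0.19 and -3.36 for Sdhaf4, and 1 of 6 WT libraries correlated best with its own number. The median over all rows moved by less than 0.1 in every scaling. Depth limits the 8 untested members and Slc25a53.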

Other observations

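Among the 19 members that were lower in KO, KO replicate 3 had the highest KO value in 10, KO replicate 1 in 4, KO replicate 6 in 3, KO replicate 4 in 2, and the others in 0. The members took 0.925% to 1.02% of all counts in WT libraries and 0.795% to 0.924% in KO libraries, the upper end being KO replicate 3.

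Nnt, the inner membrane transhydrogenase that makes NADPH and carries a known deletion of several exons in C57BL/6J mice, was abundant in every library, at 1024 to 1483 CPM in WT (median 1086) and 335 to 761 CPM in KO (median 473), without overlap (edgeR log2 fold change -1.22, SE 0.18, adjusted p = 7.86e-05). The counts are per gene, so the exons behind them were not analysed here, and the labels name the strain as C57BL/6 and the study's methods as C57BL/6J. Counts per gene cannot show whether the deleted exons were present, and the substrain of the mice was not tested. Cpt1b, the outer carnitine palmitoyltransferase of muscle, was listed at only 11.3 to 16 CPM in WT and 6.15 to 10.4 CPM in KO, and its row overlaps Chkb.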
